A study of Mus with 6 samples.

Results

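The 10 genes Ifi203, Ifi204, Ifi205, Ifi207, Ifi208, Ifi209, Ifi211, Ifi213, Mndal and Aim2 are neighbours on mouse chromosome 1 and belong to the PYHIN family. Their RNA levels were examined in endothelial cells of the cardiac microvasculature from wild-type (WT) mice and mice without the chemokine gene Ccl28 (KO). The genes were taken by name, and all 10 were among the 20893 genes of the expression table. The set was chosen because Ifi208 was nearly absent in KO, so the KO and WT values of Ifi208 are given as a description without a test. The other 9 were chosen by family and position.

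Each group had 3 libraries, which carry the replicate numbers 2, 3 and 4 in both genotypes. All hearts, WT as well as KO, came from mice with a ligated left coronary artery, a surgical model of infarction, and beads were used to take CD31-positive, CD45-negative cells from them. The genotype field of KO replicates 3 and 4 names Ccl29 and Ccl30 where the titles name Ccl28, and the titles were followed. The sources used here do not give strain, age, sex, the way the mutation was made or the time after ligation. It is not stated whether replicates are separate animals, and p-values therefore speak only of how much these samples vary, which can be technical variation. Ccl28 had 16, 11 and 24 reads in the WT libraries and 0 in each KO library.

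Many PYHIN proteins join an N-terminal pyrin domain, which binds other pyrin domains, to a C-terminal HIN domain, which binds double-stranded DNA. Several are sensors of DNA in the cytosol or nucleus, and interferons induce many of them. Aim2 encodes the best known member, which recruits the adaptor encoded by Pycard to activate the inflammasome protease encoded by Casp1 after it binds cytosolic DNA. Mouse PYHIN genes arose by repeated duplication, and their near copies lie side by side. Ifi208 and Ifi213 were earlier named Pydc3 and Pydc4, for pyrin domain containing genes. Which of these domains each member encodes was not examined here.

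On the mm10 (GRCm38) build the 10 genes span 682 kb of chromosome 1, from 173349547 to 174031755. In order they are Aim2, Ifi213, Ifi209, Ifi208, Ifi207, Ifi204, Mndal, Ifi211, Ifi203 and Ifi205. Ifi208 (gene ID 100033459) runs from 173673628 to 173698393. It lies 25.7 kb from Ifi209 (173630859 to 173647928) on one side and 25 kb from Ifi207 (173723424 to 173741831) on the other. The annotated body of Aim2 (173349547 to 173466040) overlaps that of Cadm3 (173331892 to 173368139), and how reads of such a stretch were assigned was not given in the sources used here. The same holds for reads that match several near copies, so values of single members are uncertain to that extent. RefSeq lists an older clone name under both Ifi208 and Ifi213, and the name Mndal also as a synonym of Ifi203.

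The libraries held 39104282 to 40500067 assigned reads in WT and 36004457 to 37780513 in KO. Levels are in deposited FPKM, which scale fragments by the length of the transcript and the size of the library. The endothelial surface genes Pecam1 (705 ± 35.9 FPKM in WT and 611 ± 45.1 in KO) and Cdh5 (766 ± 14.1 and 569 ± 52.4, SD, n = 3) were high in both groups. Ptprc, which encodes CD45, was at most 1.71 FPKM in a library. Other cells were not absent: the summed level of 22 monocyte and macrophage markers was 124 to 290 FPKM in WT and 301 to 450 in KO, and that of 11 neutrophil markers 20 to 30.2 and 41.6 to 64.8. Mural markers summed to 492 to 647 in WT and 374 to 588 in KO, and erythroid and platelet markers to 299 to 403 and 490 to 640. For cardiomyocyte markers the sums were 187 to 272 and 259 to 304, for fibroblast markers 43.5 to 52.5 and 29.2 to 34.8. Lymphocyte markers gave 9.84 to 12.4 and 19.2 to 29.9. The part of these cells in the values below was not tested, and in such bulk samples fewer cells of a type and less RNA per cell cannot be told apart.

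Ifi208 was present in every WT library and nearly absent from every KO library. In the order of replicates 2, 3 and 4, its read numbers were 746, 598 and 535 in WT against 1, 0 and 10 in KO. These reads correspond to 3.34, 2.78 and 2.46 FPKM in WT and 0.00481, 0 and 0.0504 FPKM in KO. The lowest WT library was thus far above the highest KO library. KO replicate 4, with 10 reads and an exact 95% Poisson interval of 4.8 to 18.4 reads, held most of what was left, at 1.76% of the WT mean. KO replicate 2 stood at 0.168% of the WT mean, and the 0 reads of KO replicate 3 allow up to 3 reads by the 1-sided limit for a count of 0, or 0.512% (3.69 reads by the upper end of the exact 95% Poisson interval). Intervals and limits of this kind cover counting error only.

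The mean level of Ifi208 was 2.86 ± 0.447 FPKM in WT and 0.0184 ± 0.0278 in KO (SD, n = 3 each), so the KO mean was 0.643% of the WT mean. Without KO replicate 4 it was 0.084%. Over all libraries there were 1879 WT reads and 11 KO reads, a 159-fold difference per assigned read. The exact binomial 95% interval of 88.8 to 320 covers the counting error of the pooled reads only, not the spread between libraries. In the authors' deposited table the fold change of Ifi208 was 0.00663, or -7.24 on the log2 scale. Among the 10743 genes with a mean WT level of at least 1 FPKM, Ifi208 had the lowest ratio of KO to WT mean. The next was Plac9a at 17.6%, followed by Slc15a2 at 17.9%, Fos at 18.2%, Tmem267 at 18.4% and LOC118568784 at 18.9%. Tmem267 (119488086 to 119610459) lies close to Ccl28 (119623819 to 119654359) on chromosome 13.

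**Figure D1:**
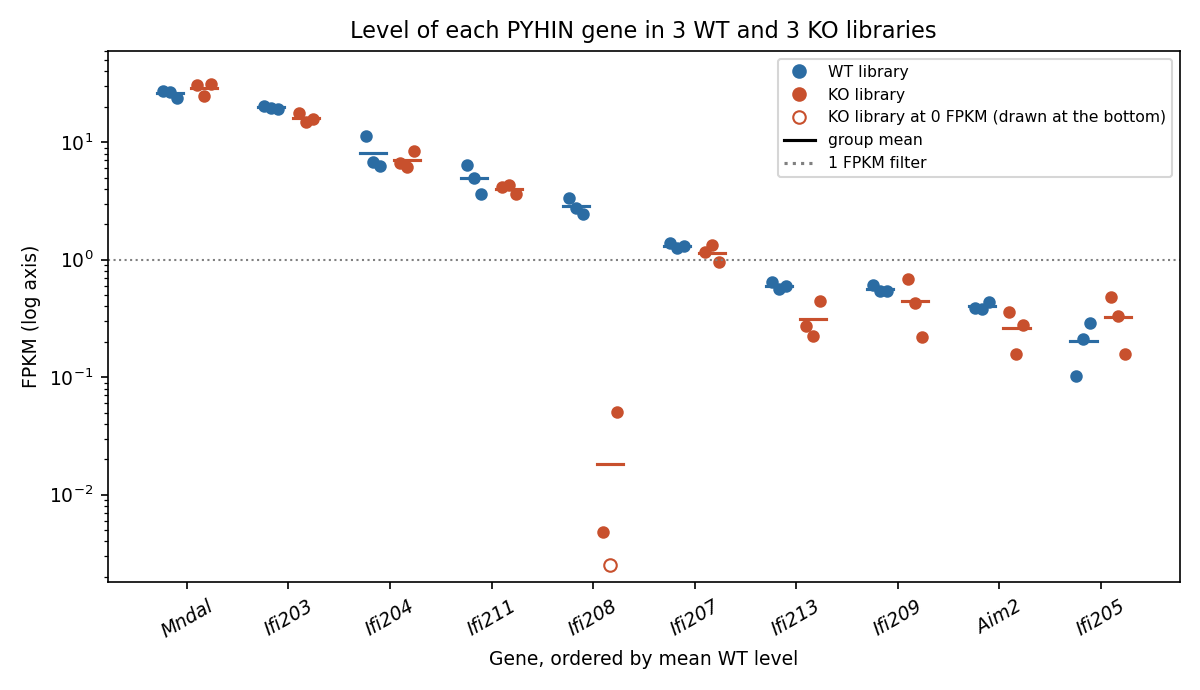
FPKM (log axis) of the 10 genes in each library, with WT in blue, KO in red, bars at the group means and an open symbol for a library at 0. The KO libraries of Ifi208 lie between 0 and 0.0504 FPKM while its WT libraries lie between 2.46 and 3.34; none of the other 9 genes has groups this far apart.

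The remaining 9 genes were all detected in KO. In WT the order of levels was Mndal (26 ± 1.89 FPKM), Ifi203 (19.7 ± 0.518), Ifi204 (8.11 ± 2.75), Ifi211 (4.97 ± 1.39), Ifi208, Ifi207 (1.32 ± 0.0597), Ifi213 (0.602 ± 0.0377), Ifi209 (0.564 ± 0.0374), Aim2 (0.401 ± 0.0328) and Ifi205 (0.202 ± 0.0941). FPKM are scaled to a length per gene. Levels of different genes can be set side by side only as far as that length matches the transcripts present, which was not checked. Most neighbours in this order did not overlap, and the exceptions were Ifi204 with Ifi211 and Ifi213 with Ifi209. In KO, Mndal, Ifi203, Ifi204, Ifi211 and Ifi207 followed each other in this order with no overlap between neighbours. Below them the ranges of Ifi209, Ifi205, Ifi213 and Aim2 overlapped from each to the next, and Ifi208 came last, with every KO library below every KO library of the other members.

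The summed level of the 9 genes without Ifi208 was 68.5, 61 and 56.2 FPKM in WT replicates 2, 3 and 4 and 62, 52.5 and 61.3 in KO replicates 2, 3 and 4. These ranges overlapped, with means of 61.9 ± 6.2 in WT and 58.6 ± 5.31 in KO (SD, n = 3). Mndal and Ifi203 together made up 66.4% to 73.5% of the summed level of all 10 genes in WT and 75.2% to 77.8% in KO. Ifi208 made up 4.2% to 4.66% of that sum in WT and at most 0.0821% in a KO library.

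A gene was tested with limma when at least 3 libraries reached 1 FPKM. Each log2 fold change compares KO with WT in log2(FPKM + 1) and so understates changes at low levels. Of the 10 genes, 6 passed this filter, Ifi208 through its WT libraries alone. Aim2, Ifi205, Ifi209 and Ifi213 lay under it. Of all 10806 tested genes, 44.2% had an adjusted p under 0.05, 18.3% as higher and 25.8% as lower in KO. Median-ratio scaling of the libraries, which shifted the median by 0.05, gave 2576 higher genes of 4966 called, against 1982 of 4772 here. Of the 5 tested members other than Ifi208, 1 was called, Ifi203, as lower. Their median log2 fold change was -0.13, beside -0.03 over all tested genes.

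Ifi203 encodes a nuclear PYHIN protein and was the second most abundant member. It had 20.3, 19.7 and 19.3 FPKM in WT replicates 2, 3 and 4 and 17.6, 14.8 and 15.7 in KO replicates 2, 3 and 4. All 3 KO libraries lay below all WT libraries, and the KO mean was 81.3% of the WT mean. The log2 fold change was -0.29 (SE 0.08, adjusted p = 0.0176). This call was lost when KO replicate 3 was left out (adjusted p = 0.0612), and also when KO replicate 4 was (adjusted p = 0.0507).

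Across the tested genes the fold change followed the implied transcript length, that is, the length by which reads were scaled to FPKM. With the tested genes divided by length into 5 equal bins, the median log2 fold change was -0.38 in the bin of the longest transcripts (6233 nt and more) and 0.35 in that of the shortest (up to 1791 nt). Ifi203 has an implied length of 6688 nt, and the 584 other tested genes within 0.1 of its log2 length had a median of -0.28, next to its own -0.29. When a trend with length was removed from each library, the log2 fold change of Ifi203 was 0.02 (adjusted p = 0.875). In that limma fit 18.7% of the 10806 genes were called, 9.27% as higher and 9.47% as lower, and none of the 5 members was. In it Mndal was at 0.34 (adjusted p = 0.0567) and Ifi211 at -0.39 (adjusted p = 0.113). Ifi208, with 5507 nt, was at -1.92 beside a median of -0.27 for the 663 genes of like length, and at -1.68 with the trend removed.

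**Figure D2:**
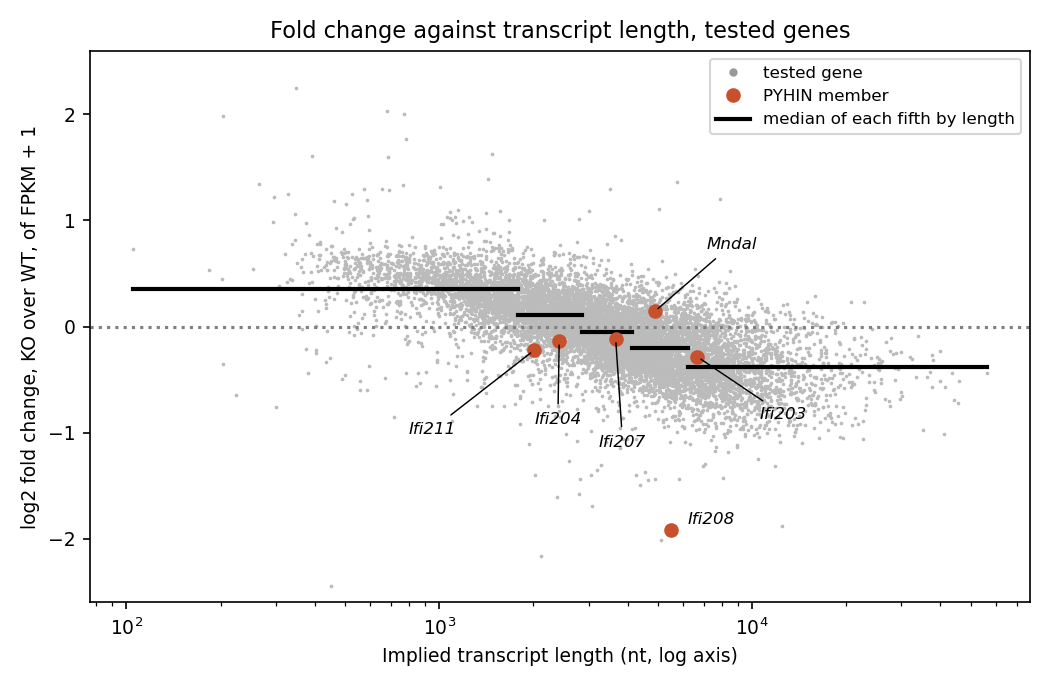
Log2 fold change of FPKM + 1, KO over WT, against implied transcript length (log axis) for the 10806 tested genes in grey, with the 6 tested members in red and black bars at the median of each of 5 length bins (0.35 for the shortest, -0.38 for the longest). Ifi203 lies near the bar of its bin, Mndal above and Ifi208 far below the bar of theirs.

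Mndal, the most abundant member, encodes the myeloid nuclear differentiation antigen like protein. It had 27.4, 26.7 and 23.8 FPKM in WT replicates 2, 3 and 4 and 30.7, 24.6 and 31.5 in KO replicates 2, 3 and 4. The groups overlapped, and the log2 fold change was 0.14 (SE 0.10, adjusted p = 0.273). The 744 tested genes of like length (4887 nt for Mndal) had a median of -0.19. With the length trend removed Mndal was at 0.34 (adjusted p = 0.0567). With limma-voom on the recovered reads and that trend removed it was at 0.38 (adjusted p = 0.0213). Without KO replicate 3 it was called as higher at 0.25 (adjusted p = 0.0483).

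Ifi204 encodes p204, a nuclear and cytosolic DNA-binding protein studied in DNA sensing and in the differentiation of muscle and myeloid cells. It had 11.3, 6.74 and 6.31 FPKM in WT replicates 2, 3 and 4 and 6.67, 6.21 and 8.49 in KO replicates 2, 3 and 4. WT replicate 2 was the highest library, and WT replicates 3 and 4 lay within the KO range. The log2 fold change was -0.13 (SE 0.19, adjusted p = 0.585), and 0.10 without WT replicate 2.

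Ifi211 had 6.36, 4.96 and 3.59 FPKM in WT replicates 2, 3 and 4 and 4.13, 4.35 and 3.6 in KO replicates 2, 3 and 4. Here too WT replicate 2 was the highest, while WT replicate 4 was the lowest of all libraries. The log2 fold change was -0.22 (SE 0.16, adjusted p = 0.268). Ifi211 was called as lower without WT replicate 4, at -0.40 (adjusted p = 0.0439). Without WT replicate 2 it was at -0.06 (adjusted p = 0.75), and it was not called without any other library (adjusted p = 0.249 to 0.513). The 594 tested genes of like length (2007 nt for Ifi211) had a median of 0.16. With the length trend removed Ifi211 was at -0.39 (adjusted p = 0.113). Ifi207, the neighbour of Ifi208 on the side of higher coordinates, had 205, 181 and 189 reads in WT and 162, 181 and 125 in KO replicates 2, 3 and 4. The ranges overlapped between 1.26 and 1.33 FPKM, with a log2 fold change of -0.11 (SE 0.11, adjusted p = 0.414). Its KO mean was 87.2% of the WT mean.

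Ifi213, which with Ifi208 was named for the pyrin domain, was also lower in KO, at a low level. In the order of replicates 2, 3 and 4, its reads numbered 218, 186 and 197 in WT and 86, 70 and 135 in KO. All WT libraries (0.568 to 0.643 FPKM) lay above all KO libraries (0.225 to 0.448), and the KO mean was 52.3% of the WT mean. In a limma fit without the filter, in which 17.4% of 20893 genes were called, the log2 fold change of Ifi213 was -0.29 (SE 0.07, adjusted p = 0.0442). This call was lost without any 1 of the WT libraries, KO replicate 2 or KO replicate 3 (adjusted p = 0.101 to 0.138). The replicate block fit (adjusted p = 0.108) and a pseudocount of 0.1 (adjusted p = 0.096) lost it too. Ifi213 stayed called after median-ratio (adjusted p = 0.0474) or quantile scaling (0.0299), and when KO replicate 4 was dropped (0.0319). Every such fit with a library left out called fewer genes in all, from 5 (WT replicate 4) to 2339 (WT replicate 2), against 3641. A call lost there is thus not particular to Ifi213. Ifi213 has an implied length of 8375 nt. With the length trend removed from the fit without the filter, its log2 fold change was -0.08 (adjusted p = 0.495). Limma-voom on its recovered reads gave -0.93 (adjusted p = 0.0151), and -0.52 (adjusted p = 0.254) with the length trend removed. The authors' deposited table gave Ifi213 a log2 fold change of -0.88 with q = 0.0121.

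Ifi209, the neighbour of Ifi208 on the side of lower coordinates, was covered by 86, 74 and 75 reads in the WT libraries and by 91, 56 and 28 in KO replicates 2, 3 and 4. KO replicate 2 was the highest and KO replicate 4 the lowest of the 6 libraries, and without the filter the log2 fold change was -0.12 (adjusted p = 0.554). Ifi205 was the rarest member in WT, with 8, 16 and 22 reads in WT and 35, 24 and 11 in KO replicates 2, 3 and 4. It was 1 of 2 members with a higher mean in KO, but the groups overlapped (log2 fold change 0.14 without the filter, adjusted p = 0.465).

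Aim2 had 0.387, 0.377 and 0.438 FPKM in WT replicates 2, 3 and 4 and 0.358, 0.158 and 0.278 in KO replicates 2, 3 and 4. The groups did not overlap, although KO replicate 2 lay close to the lowest WT library. The KO mean was 66% of the WT mean, with a log2 fold change of -0.15 without the filter (adjusted p = 0.181). With 9900 nt Aim2 has the longest implied length of the 10 genes, and its log2 fold change was 0.06 in that fit with the length trend removed. Limma-voom on its recovered reads gave -0.60 (adjusted p = 0.151), and -0.14 (adjusted p = 0.82) with the length trend removed. Counting Ifi208, 4 of the 10 genes had all KO libraries below all WT libraries, and 20.4% of the 20893 genes did. No member had all KO libraries above all WT libraries, which 13.9% of the genes had. Ifi208 counts among the 4 by the choice of the set, and the others, Ifi203, Ifi213 and Aim2, have the longest implied lengths of the 10.

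**Figure D3:**
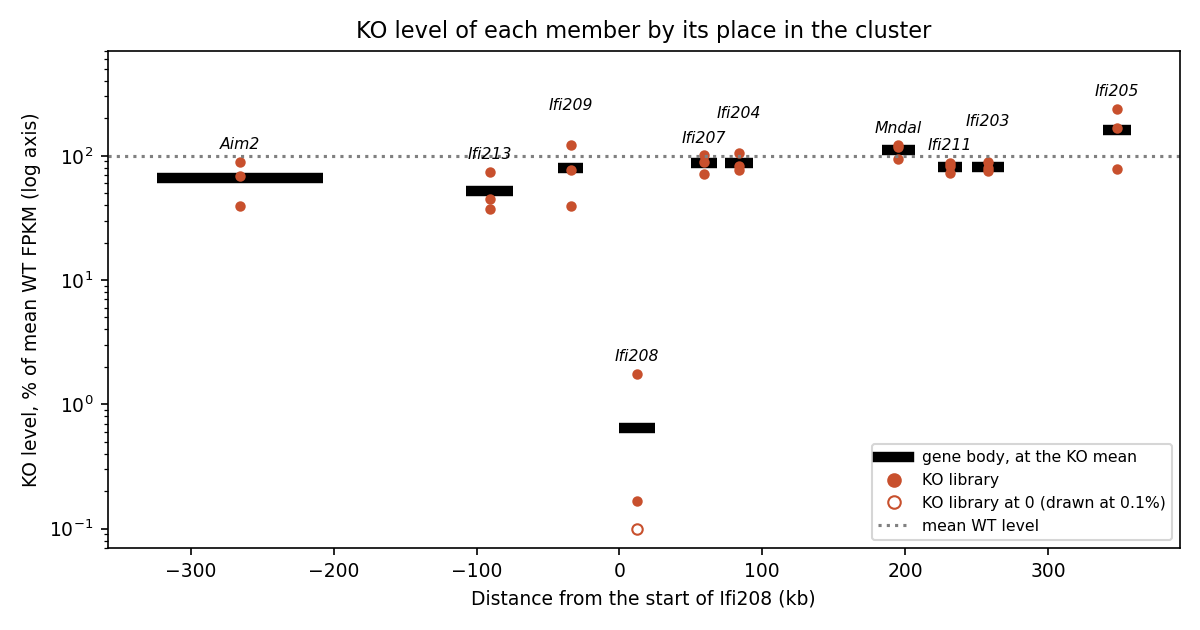
KO level of each gene as a percentage of its mean WT level (log axis) against the distance from the start of Ifi208 in kb, with black bars for the gene bodies at the KO mean and red points for KO libraries. Ifi208 lies at 0.643% between Ifi209 at 79.3% and Ifi207 at 87.2%; the other members lie between 52.3% and 161%.

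Genes beside the cluster were examined with the same fit. Of 61 other genes of the table within 2 Mb of its ends, 25 were tested; 3 rose and 4 fell, so 28% were called beside 44.2% of all tested genes. Their median log2 fold change was 0.06. Genes nearer to the cluster, such as Cadm3, were not among those tested. The nearest tested gene on the side of lower coordinates was Dusp23, a phosphatase gene 717 kb away. It rose from 11.3 ± 1.5 to 14.8 ± 1.42 FPKM (adjusted p = 0.0215). Cfap45 and Tagln2 on that side had adjusted p = 0.513 and 0.0595. On the other side the nearest tested gene was Fh1, the fumarate hydratase gene 1570 kb away. It rose from 35.5 ± 2 to 40.8 ± 1.06 FPKM (adjusted p = 0.0432). Beyond it, Opn3 had an adjusted p of 0.0564 and Chml, a Rab escort protein gene whose annotated body lies inside that of Opn3, fell to 57.5% of the WT mean (adjusted p = 0.00535). Vangl2, a planar cell polarity gene, fell to 67.9% of its WT mean (adjusted p = 0.0201) and the pseudogene Tma7-ps rose 1.58-fold (adjusted p = 0.00347). With the length trend removed 2 of the 25 were called, Tstd1 (adjusted p = 0.0242) and Gm26641 (adjusted p = 0.0395), beside 18.7% of all tested genes; both are named after their values were seen, and neither was called before. Dusp23, Fh1, Chml, Vangl2 and Tma7-ps lost their calls in that fit (adjusted p = 0.0798 to 0.899). Of the PYHIN genes that were not in the set, Ifi206 had 35 to 71 reads in WT and 41 to 48 in KO, and Ifi214 was at 0 FPKM in WT replicate 2 and KO replicate 2 and at most 0.0988 FPKM in the others.

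Since interferons induce PYHIN genes, an interferon response list was set beside them. Of 48 genes in that list 44 were tested; 12 fell and 4 rose, and the median log2 fold change was -0.18. The 27.3% that fell lie near the 25.8% of all tested genes that fell, and the 9.09% that rose compare with 18.3%. The summed level of the list overlapped between the groups, at 2791 to 3435 FPKM in WT and 3019 to 3633 in KO. The 4 tested genes with the smallest p all fell. The chemokine gene Cxcl10 fell from 12 ± 3.35 to 5.88 ± 0.427 FPKM (adjusted p = 0.002), Gbp7, a guanylate-binding protein gene, from 18.1 ± 2.33 to 10.3 ± 1.59 (adjusted p = 0.00116), Rsad2, which encodes the antiviral protein viperin, from 38.4 ± 4.98 to 25 ± 4.19 (adjusted p = 0.00422) and Parp14, an ADP-ribosyltransferase gene, from 26 ± 1.56 to 16.1 ± 1.85 (adjusted p = 0.000721). With the length trend removed 4 of the 44 fell and 1 rose, where 9.47% of all tested genes fell and 9.27% rose. Parp14 was then at -0.29 (adjusted p = 0.0505) and no longer called. Cxcl10 (-1.26, adjusted p = 0.00236), Gbp7 (-0.51, adjusted p = 0.015) and Rsad2 (-0.51, adjusted p = 0.0221) were still called as lower.

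Of 15 genes of interferon receptors and signalling, 3 were called, all as lower, which is 20% of the list beside 25.8% of all tested genes called as lower. They were the kinase genes Jak1 (77.9% of the WT mean, adjusted p = 0.00842) and Jak2 (81.7%, adjusted p = 0.0304) and the receptor gene Ifnar1 (84.8%, adjusted p = 0.0379). With the length trend removed Jak1 was at -0.08 (adjusted p = 0.409) and Jak2 at 0.16 (adjusted p = 0.137), and 1 of the 15 was called, the receptor gene Ifnar2, as higher, where 18.7% of all tested genes were called; it is named here after its value was seen.

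The libraries of a group also differed among themselves in these genes. WT replicate 2 was the highest WT library for 8 of the 10 members, all but Ifi205 and Aim2, and for 39 of the 44 tested interferon response genes, beside 46.7% of all tested genes. KO replicate 2 was the highest KO library for 4 of the 10 members and 84.1% of these interferon response genes, beside 34.3% of all tested genes. KO replicate 3 was the lowest KO library for 6 of the 10 members and for 39 of the 44 interferon response genes, beside 35.9% of all tested genes. The members and the interferon response genes are read from the same libraries, and no test was made of this pattern.

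The partners of Aim2 and the cytosolic DNA sensors were expressed in both groups. Pycard, the inflammasome adaptor gene, had 2.96, 2.13 and 1.91 FPKM in WT and 3.22, 4.17 and 3.94 in KO replicates 2, 3 and 4, and so rose to 162% of its WT mean (adjusted p = 0.011). Casp1 had 6.89 ± 0.228 and 6.38 ± 0.977 FPKM (adjusted p = 0.442). Gsdmd, the pore-forming gasdermin gene, rose from 30.1 ± 1.28 to 35.3 ± 2.59 (adjusted p = 0.0397). The cytokine genes were low, with Il1b at 2.01 ± 1.16 and 2.63 ± 0.359 FPKM (adjusted p = 0.237) and Il18 at most 0.204 FPKM in a library. In the inflammasome list of 18 genes, 9 were tested, of which 4 rose (Pycard, Gsdmd, Casp4 and Ninj1) and 1 fell, Nek7, a kinase gene of the NLRP3 inflammasome, from 17.9 ± 0.592 to 12.1 ± 0.232 FPKM (adjusted p = 0.000671). The 44.4% that rose compare with 18.3% of all tested genes. With the length trend removed 2 of the 9 were called, Nek7 and Casp1 (log2 fold change -0.37, adjusted p = 0.0227). Both were lower, where 9.47% of all tested genes were called as lower. Pycard was then at 0.39 (adjusted p = 0.0631). Macrophages and neutrophils express inflammasome genes too, and the summed levels of their markers were higher in KO as given above. Single markers differed. Of 19 tested macrophage markers 11 rose, 4 with the length trend removed, and of 5 tested neutrophil markers 3 rose in either fit. Among all tested genes 18.3% rose, and 9.27% with the length trend removed. Csf1r (adjusted p = 0.386) and Ptprc (adjusted p = 0.895) were not called. The part of these cells in these values was not tested.

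In the list of cytosolic DNA sensing 13 of 18 genes were tested; 2 rose and 1 fell. The 23.1% called compare with 44.2% of all tested genes. Ddx41, a helicase gene, rose from 27.3 ± 1.12 to 35.2 ± 2.4 FPKM (adjusted p = 0.00469), Polr3c, a subunit gene of RNA polymerase III, rose 1.27-fold (adjusted p = 0.00934), and Adar, the RNA-editing enzyme gene, fell to 84% of its WT mean (adjusted p = 0.0422). Ddx41 and Polr3c were still called with the length trend removed (adjusted p = 0.0493 and 0.0459). Sting1, the adaptor gene downstream of cyclic dinucleotides, had 52.2 ± 2.56 and 52.7 ± 2.46 FPKM (adjusted p = 0.89), and Cgas, the sensor gene that makes them, 1.45 ± 0.229 and 1.19 ± 0.13 (adjusted p = 0.261). Irf3 had an adjusted p of 0.0525.

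**Figure D4:**
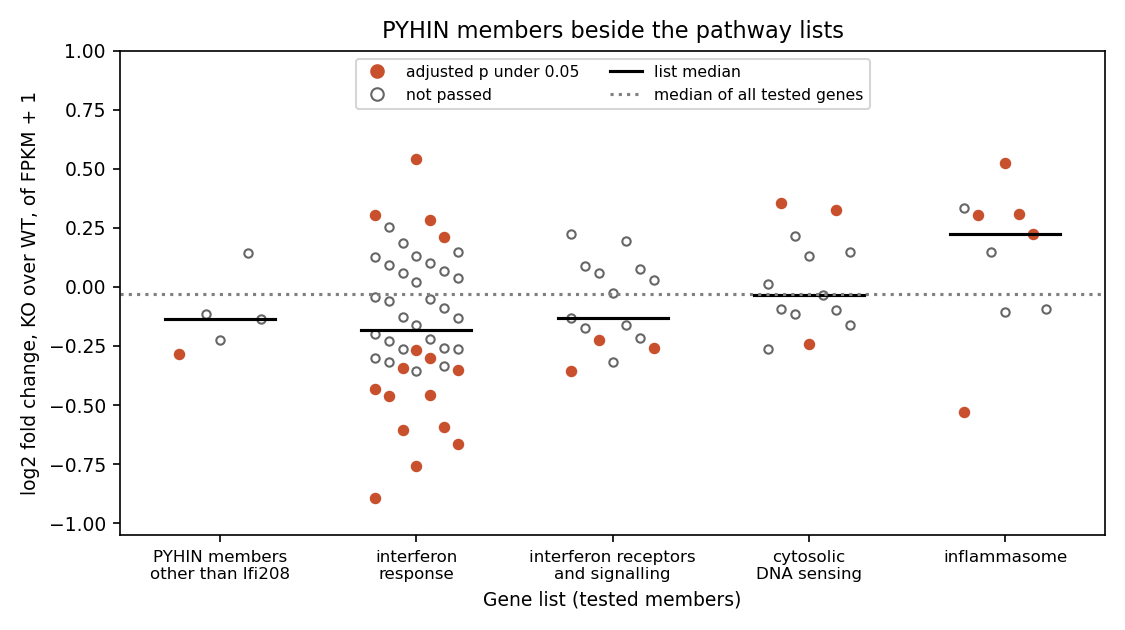
Log2 fold change of FPKM + 1, KO over WT, for tested members of each list, with filled symbols for an adjusted p under 0.05, bars at list medians and a dotted line at the median of all tested genes (-0.03). The 5 tested PYHIN members other than Ifi208 lie between -0.29 and 0.14, within the range of the 44 interferon response genes.

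The tested genes outside the set whose levels over the 6 libraries were most like those of Ifi208, by Pearson's r of log2(FPKM + 1), were Zfp970 (r = 0.999), Gm38561 (0.997), Fmr1 (0.997), Nlk (0.997) and Trim56 (0.996). This measure is set by the 2 groups and does not read the size of a change. None of these 5 was near absence in KO: Zfp970 was at 68.4% of its WT mean, Gm38561 at 71%, Fmr1 at 61.7%, Nlk at 74.4% and Trim56, a ubiquitin ligase gene, at 39.9%.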

How the data were processed

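The authors deposited FPKM per gene and library. A second deposited table holds a DESeq2 comparison with group means (a signal of counts over size factors), a fold change as ratio and as log2, and p-value and q-value, per the file headers. Per the submitters' processing notes, DESeq2 1.22.1, featureCounts 1.6.2, HISAT2 2.1.0, fastp 0.19.3, Cufflinks, StringTie 1.3.4d, GATK 4.0.11.0 and the mm10 build were used, with no role given. Libraries came from a TruSeq stranded mRNA kit, per the labels' protocols; the strand setting of counting was not given in the sources used here.

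Whole reads and implied transcript lengths were recovered for 17686 genes from FPKM and the deposited group means. The result was a whole number within 0.05 for 100.0% of values up to 1000 reads. Chi-square per gene between replicates of a group was 19.5 to 66.7, far above sampling noise. Genes that reached 1 FPKM in 3 libraries or more entered limma 3.58.1 (R 4.3.3, trend, genotype only, pseudocount 1, Benjamini-Hochberg over all tested genes, threshold 0.05). The length trend was a lowess curve (span 0.4) per library. Limma-voom used trimmed-mean (TMM) factors. The fits and the recovery were tested on simulated data. Coordinates are RefSeq's for GRCm38.p6. Other steps used scipy 1.17.1, pandas 2.3.3, numpy 2.4.6, matplotlib 3.10.9 and Python 3.11.15.

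The genes, lists and tests were chosen with earlier results of these data known. Named were the 10 members, other PYHIN genes, Ccl28, up to 4 genes per pathway list with the smallest p, set partners of Aim2, the 3 nearest tested genes on each side and up to 4 with the smallest p beside the cluster, and 5 genes each by likeness and by KO to WT ratio; some genes that this rule names are not reported here. Lists of lymphocyte, erythroid and platelet, cardiomyocyte, fibroblast and mural markers were also counted. Of their tested genes, 4 of 4 lymphocyte and 7 of 9 erythroid and platelet markers rose, 2 of 9 cardiomyocyte markers rose and 1 fell, and 6 of 7 fibroblast and 8 of 13 mural markers fell. Of 18 endothelial markers 4 rose and 9 fell, of 19 tested macrophage markers 11 rose, and of 5 tested neutrophil markers 3 rose. These counts stand beside 18.3% of all tested genes called as higher and 25.8% called as lower. Settings tried were quantile and median-ratio scaling, no filter, 5 FPKM, a pseudocount of 0.1, the replicate block, the length trend, limma-voom and each library left out.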

Additional observations from a re-analysis of the deposited data

How the results depend on the processing

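Of the 9 members other than Ifi208, 5 were tested and 1 was called (Ifi203). Without an expression filter 2 of the 9 were called, where 17.4% of 20893 genes were. With the length trend removed 0 of the 5 were called, where 18.7% of all tested genes were. Limma-voom with that trend removed called 1, Mndal. With each library left out in turn 0 to 2 of the 5 were called (0 without KO replicate 4, and 2, Ifi203 and Ifi211, without WT replicate 4). Among 75 tested genes of the 4 pathway lists 27 were called, against 15 without a filter, 10 with the length trend removed, 16 in limma-voom with that trend removed and 14 to 23 with a library left out (14 without KO replicate 4). Of the 25 tested genes beside the cluster 7 were called, against 11 with median-ratio scaling, 4 without a filter, 3 with the replicate number as a block, 2 with the length trend removed, 2 in limma-voom with that trend removed and 3 to 7 with a library left out (3 without KO replicate 4). Beyond the fewer samples or stricter terms of some settings, the cause was not tested. Over all genes 4772 of 10806 (44.2%) were called, against 3641 of 20893 without a filter. With the length trend removed 2025 were called (18.7%), and 2359 in limma-voom with it removed. With a library left out 3392 to 4380 were called over all genes (3576 without KO replicate 4). Signs turned for Ifi203 with the length trend removed (0.02) and in limma-voom with it removed (0.08), for Ifi204 without WT replicate 2 (0.10; -0.27 to 0.10 over the left-out libraries) and for Aim2 without a filter and with the length trend removed (0.06). The KO mean of Ifi208 lay between 0.084% and 0.965% of the WT mean over its alternatives. Fits without a filter combined with another choice, and limma-voom combined with the length trend, were chosen after seeing the data. Over the tested genes as a whole, same-numbered libraries did not deviate together. Pearson's r of deviations from group means was -0.195, -0.349 and -0.222 for replicates 2, 3 and 4. For libraries of unlike number it was 0.00248 to 0.199. Most interferon response genes, though, were highest in replicate 2 of both groups, as given above. The numbers are not taken as pairs, and the replicate block is given as an alternative. The replicate block gave 1 called member (Ifi203, adjusted p = 0.0418), 22 called pathway genes and 3749 called genes in all. Depth limits Ifi205, with 8 to 35 reads a library, and Ifi208 in KO.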
